A study of Homo sapiens with 6 samples.

Results

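Long intergenic noncoding RNA genes that carry a numbered LINC symbol were described from 1 merged transcript assembly of a human beta cell line. The genes were chosen by name: every model on chromosomes 1 to 22 and X whose gene name starts with LINC followed by a digit. This gave 613 gene names of 25211 in the assembly, with 837 transcript models of 55083. The study asked how the transcriptome of the beta cell line EndoC-βH1, of human pancreatic origin, responds when an shRNA is aimed at the promoter of the insulin gene INS. In the INS-KD group (n = 3 libraries) the lentiviral, doxycycline-inducible shRNA was switched on with doxycycline at 1 mg/mL for 7 days. In the Negative Control group (n = 3 libraries) the same construct was carried and no doxycycline was added. All 6 libraries come from the same cell line. A group given doxycycline but carrying no hairpin is not among the labels, so the agent and the hairpin cannot be told apart.

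The assembly gives exon positions for the whole series and no abundance for any library. No level, fold change or difference between INS-KD and Negative Control cells could therefore be computed, INS included, and sequencing depth is unknown. Of the 837 LINC models, 796 are copies of RefSeq transcripts, which a merge with an annotation lists whether or not reads were found. Another 36 models were joined models, whose intron chain shares junctions with a RefSeq transcript but differs from it as a whole. The remaining 5 models had the intron chain of a RefSeq transcript and longer ends. A coding (NM_) accession was carried by 2 of the models, those of LINC00452 and LINC01272. A listed LINC gene is thus not by itself an expressed gene, and the results describe gene structure and position. The intervals beside shares are exact 95% intervals (Clopper-Pearson) for counting error alone.

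Long intergenic noncoding RNAs are RNA polymerase II transcripts that lie between protein-coding genes and are mostly capped, spliced and polyadenylated. Some act in trans on proteins or mRNAs, some act near their site of transcription, some host microRNAs, and for many no function is known. A number of transcripts first named as noncoding were later found to carry a short translated frame. In endoderm and pancreas a studied example is LINC00261, the neighbour of the pioneer factor gene FOXA2.

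The LINC start sites that lie back to back with a coding gene are easiest to see in the bases between both starts. The intervals below run from start site to start site on the plus strand of GRCh37, and capitals mark each CG dinucleotide. LINC00271 faces AHI1, a gene of the ciliary transition zone, over chr6:135818903-135818939. LINC00441 faces RB1, the retinoblastoma tumour suppressor, over chr13:48877797-48877883. LINC01137 faces ZC3H12A, which encodes an RNase that degrades inflammatory mRNAs, over chr1:37940044-37940119. LINC00592 faces C12orf80 over chr12:52604639-52604714 and is shown because it alone among the divergent LINC genes lacked a CpG-rich window.
LINC00271: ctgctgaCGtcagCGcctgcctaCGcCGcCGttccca
LINC00441: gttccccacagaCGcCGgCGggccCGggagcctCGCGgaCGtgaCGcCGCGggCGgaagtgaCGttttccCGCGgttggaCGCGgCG
LINC01137: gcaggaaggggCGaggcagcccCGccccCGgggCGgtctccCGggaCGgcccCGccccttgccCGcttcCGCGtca
LINC00592: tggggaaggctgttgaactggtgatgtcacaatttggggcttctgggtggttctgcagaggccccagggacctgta
The first interval holds 5 CG dinucleotides in 37 bases, the second 17 in 87 bases and the third 10 in 76 bases. The LINC00592 interval has the same 76 bases as that of LINC01137 and holds 0.

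Another pair of sequence sets shows what some LINC genes carry inside them. LINC00461 and LINC00478 are microRNA hosts, and the 5′-arm mature microRNAs on their strand are printed from RefSeq (GRCh38.p14) with the seed, bases 2 to 8, in capitals. No seed is shared among those printed.
hsa-miR-9-5p: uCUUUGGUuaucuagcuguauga
hsa-miR-99a-5p: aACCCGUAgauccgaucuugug
hsa-let-7c-5p: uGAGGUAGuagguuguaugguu
hsa-miR-125b-5p: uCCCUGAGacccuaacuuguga
LINC00948 and LINC00998 carry short coding frames in GENCODE 44. Both are read here from GRCh37 on the minus strand, at chr10:61496818-61496958 and chr7:112757454-112757633, with the start and stop codons in capitals.
LINC00948: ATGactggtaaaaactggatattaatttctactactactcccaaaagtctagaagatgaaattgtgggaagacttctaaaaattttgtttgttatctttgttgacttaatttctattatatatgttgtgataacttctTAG
LINC00998: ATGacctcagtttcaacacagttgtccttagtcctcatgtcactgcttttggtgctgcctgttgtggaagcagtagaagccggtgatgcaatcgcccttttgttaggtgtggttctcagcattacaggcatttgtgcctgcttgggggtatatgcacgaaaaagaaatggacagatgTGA
These frames have 46 and 59 codons, not counting the stop, and each is the longest frame in 1 of the 2 RefSeq transcripts of its gene and not in the other.

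LINC models were short chains of few exons. The median model had 3 exons (quartiles 3 to 5, range 1 to 21) and 1612 spliced bases (quartiles 852 to 2656). Other classes of gene name on the same chromosomes serve for comparison. Models of noncoding genes with an antisense (-AS) name had a median of 3 exons and 1407 bases, models of noncoding genes with a LOC name 3 exons and 1455 bases, and models of genes with an NM_ (coding) transcript 9 exons and 2786 bases. LINC genes thus lay with the other noncoding classes in exon number. Models with exactly 3 exons made up 31.1% of the LINC models, 27.8% of the -AS models, 31.5% of the LOC models and 6.10% of the coding models. At the other end, 3.23% of LINC models and 45.9% of coding models had at least 10 exons. The internal exons themselves were alike in size, with a median of 121 bases in LINC genes and 123 bases in coding genes. Introns were longer in LINC genes, at a median of 2576 bases against 1674 bases in coding genes. The -AS and LOC classes shared this, at 2757 and 2260 bases. Last exons were shorter, at 727 bases in LINC genes against 1116 bases in coding genes. They were shorter still in the -AS and LOC classes, at 651 and 586.5 bases.

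**Figure D1:**
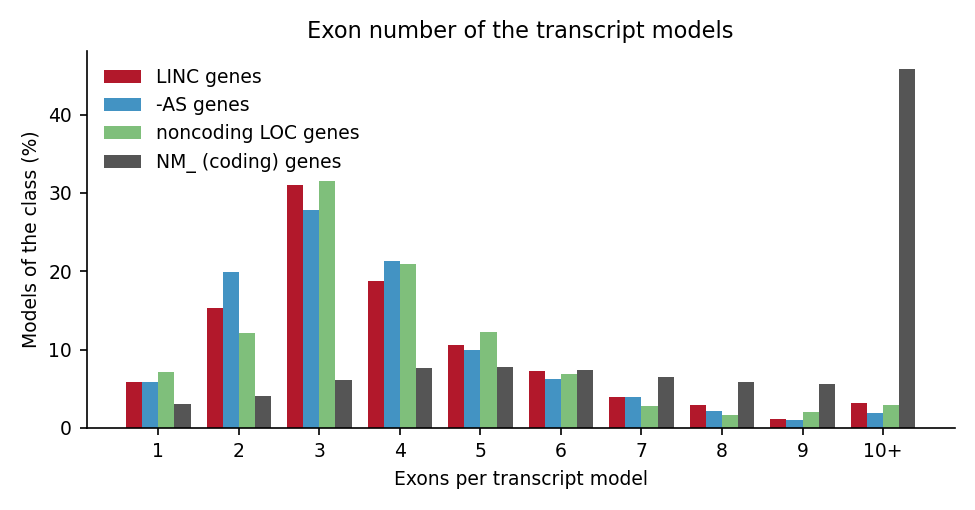
Share of transcript models (%) by number of exons for LINC, antisense-named, LOC and coding genes. The 3 noncoding classes peak at 3 exons, where LINC models reach 31.1%, while coding models reach 45.9% in the class of 10 or more.

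The extremes were set by single genes. LINC00971, whose nearest coding gene is the cell adhesion gene CADM2, had the most exons, 21 in 1 model, followed by LINC01347 with 18 and LINC00032 with 17. LINC01105 was the longest spliced RNA at 11868 bases in 2 exons, and LINC01004 reached 9419 bases in a single exon. The shortest multi-exon transcript was that of LINC00159, with 129 bases, the only model under the 200 bases commonly used to define a long noncoding RNA. LINC00669 spanned the most genome, 545072 bases for a spliced length of 2147 bases. LINC01122 (543014 bases), LINC00478 (539253 bases) and LINC00907 (504757 bases) covered nearly as much.

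Among names with a known function, LINC00657 (NORAD), a sink for Pumilio proteins, was 1 exon of 5343 bases. LINC00261 had 4 exons and 4911 bases, LINC00473 had 2 RefSeq transcripts, and LINC00152 (CYTOR) had 3. All of these were listed as RefSeq copies with 0 joined models. For LINC00657, a single exon without introns, and LINC00261, with 1 RefSeq transcript, this was largely set in advance. Among LINC names with 1 multi-exon RefSeq transcript, 0 of 458 had a joined model. LINC01128, also on the known-function list, had 4 joined models and is described below.

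Most LINC genes were annotated with a single isoform. Exactly 1 RefSeq transcript was listed for 504 of 613 LINC names (82.2%), against 78.6% of -AS names, 87.2% of LOC names and 54.9% of coding names. LINC01128 had the most, with 9, followed by LINC00339, LINC00907 and LINC01094 with 6 each and LINC01140 with 5. Of the 109 names with more than 1 transcript, 34 used more than 1 start site group. Names with exactly 2 transcripts allow a comparison at equal isoform number. Their isoforms had different 3′ ends in 34.3% of 70 LINC names (23.3 to 46.6%), 31.1% of -AS names, 28.2% of LOC names and 13.7% of 3720 coding names (12.6 to 14.8%). The start site groups differed in 27.1% of LINC names (17.2 to 39.1%), 25.6% of -AS names, 26.5% of LOC names and 25.2% of coding names. At the 3′ end the intervals of LINC and coding names were apart, while at the start the LINC interval covered the coding share.

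Joined models were found at 20 of the 567 LINC names with a multi-exon RefSeq transcript, 3.53% (2.17 to 5.40%). Over all 21400 multi-exon names on these chromosomes the share was 12.4%, and it was 3.73% in -AS names, 2.44% in LOC names and 14.1% in coding names (13.5 to 14.6%). The number of RefSeq transcripts moved with this difference. With 1 transcript, 0 of 458 LINC names had a joined model (up to 0.802%), against 0.548% of coding names. A name with 1 transcript has no second chain of its own to recombine, so a share near 0 was largely set in advance. With 2 transcripts the share was 7.04% of 71 LINC names (2.33 to 15.7%) and 5.89% of coding names. With 3 it was 33.3% of 24 LINC names (15.6 to 55.3%) and 34.3% of coding names, and with 4 to 5 it was 50% of 10 LINC names (18.7 to 81.3%) and 49.8% of coding names. With 6 or more it was 2 of 4 LINC names (6.76 to 93.2%) and 66.9% of coding names. Within each of these classes the LINC interval covered the coding share. From 2 transcripts up the LINC intervals were wide, so they cannot show that the shares are equal. Abundance could not be set beside it, so a part of expression level in these shares was not tested.

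**Figure D2:**
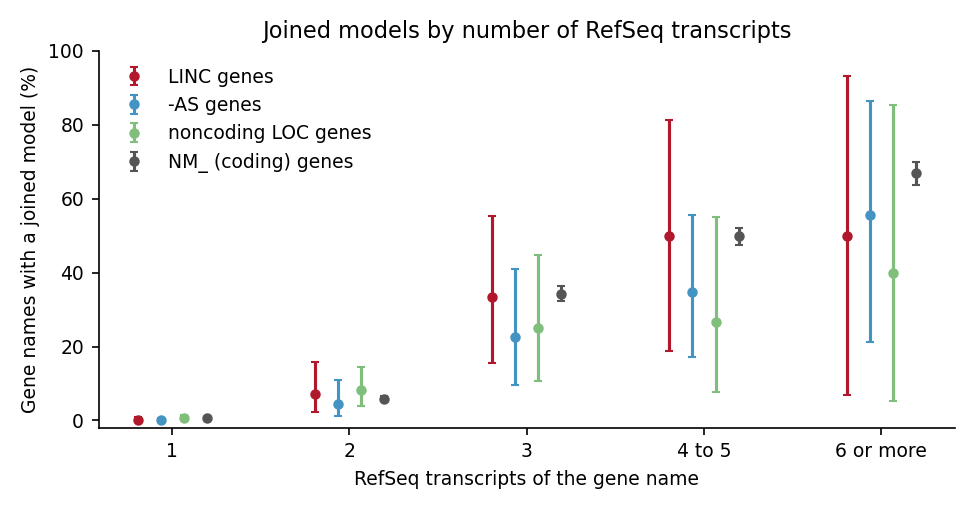
Share of gene names with a joined model (%) by number of RefSeq transcripts, for LINC, antisense-named, LOC and coding genes, with bars for exact 95% intervals. LINC and coding shares are 33.3% and 34.3% at 3 transcripts and 50% and 66.9% at 6 or more, where only 4 LINC names stand.

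The joined models were built mostly from known junctions. All 36 began and ended at the ends of RefSeq transcripts, and 34 used annotated introns alone. Of these, 28 could be made from 2 runs of consecutive introns, each run from a single RefSeq transcript, 2 needed at least 3 runs and 4 were a single run of a longer chain. The median joined model had 6 exons and 1871.5 bases. The intron chain of 5 of the 36 (13.9%, 4.67 to 29.5%) was identical to a chain in GENCODE 44, against 78.7% of the multi-exon LINC RefSeq transcripts. Those 5 belonged to LINC00635, LINC00461 (both of its models), LINC00293 and LINC00320.

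LINC00907, a gene of chr18:39766633-40271389 on the plus strand, held 8 joined models, the most of any LINC name. Its 6 RefSeq and 8 joined models all began at the same start site and used 17 distinct exons and 6 distinct 3′ ends. The 95-base first exon and a 144-base exon were in every model. A 163-base exon between them was in 5 RefSeq and 6 joined models. Further in, a 167-base and an 83-base exon were each in 5 RefSeq and 7 joined models. Use varied more between the 144-base and the 167-base exon. There, a 220-base exon was used by 3 RefSeq and 4 joined models and a 91-base exon by 2 RefSeq and 2 joined models. Past the 83-base exon, each exon was in 1 RefSeq model and in 1 or 2 joined models. Of the 8 joined models, 6 could be made from 2 runs of RefSeq introns. None of the 8 chains was in GENCODE.

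**Figure D3:**
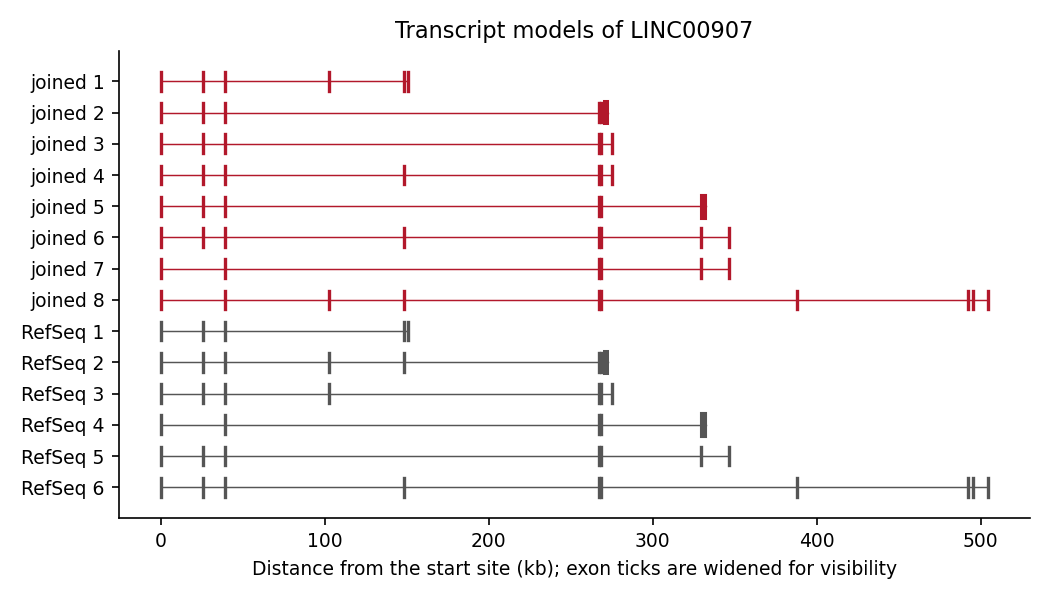
Exons (ticks, widened) and introns (lines) of the 8 joined models above the 6 RefSeq models of LINC00907, by distance from the start site (kb). All models share the first exon, and the last ends 504757 bases from the start of the gene.

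LINC01128, at chr1:762971-794826 on the plus strand, had 4 joined models and was the only LINC gene with an intron outside RefSeq. That intron, chr1:788810-788952, was in 2 joined models, has 143 bases, begins with AT and ends with CG, and was not in GENCODE. Its start and its end are each the end of a RefSeq intron. It lies in a tandem repeat: shifted by 49 bases, the sequence around it was identical to itself at 91.4% of 394 positions, against a median of 24.6% over the shifts tried. RefSeq introns in the same stretch have 49, 98 and 196 bases, which are 1, 2 and 4 repeat lengths, and ends of AT-AG, TG-CG and AT-AG. Every other intron of the gene was GT-AG. The intron is printed below from GRCh37 with its first and last bases in capitals.
LINC01128: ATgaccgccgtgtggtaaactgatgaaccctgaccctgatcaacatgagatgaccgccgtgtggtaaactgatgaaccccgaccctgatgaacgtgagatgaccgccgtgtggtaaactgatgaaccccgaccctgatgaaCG
Whether these short gaps are removed by splicing was not tested.

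LINC00521 held 3 joined models, and LINC00320, LINC00461, LINC00478 and LINC01012 held 2 each. The top 3 names together accounted for 15 of the 36 models, and 13 names had a single joined model. LINC00521 is listed in current RefSeq as CCDC197 and LINC00238 as CCDC196, both protein coding.

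The word intergenic held for nearly all names by coordinates. The span of 10 LINC names (1.63%, 0.785 to 2.98%) overlapped a gene with an NM_ transcript, against 77.2% of -AS names and 28.9% of LOC names. The classes were chosen by name, and the words intergenic and antisense refer to position, so these shares in part restate the names. Exon bases were shared by 3 LINC names: LINC00094 with BRD3, LINC00167 with PRDM10 and LINC00476 with ERCC6L2, each on opposite strands. The distance from edge to edge to the nearest coding gene had a median of 42033 bases (quartiles 11046 to 143898), against 10774 bases for LOC names. These medians count overlapping names as 0; without them they were 43247 bases for LINC and 34810 bases for LOC names. The nearest gene was within 5 kb, without overlap, for 81 LINC names (13.2%) and over 100 kb away for 194 (31.6%). LINC00395 lay farthest, 2252160 bases from PCDH20, followed by LINC00353, 1834206 bases from GPC5.

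Orientation was uneven near genes and even far from them. Over all distances, 180 LINC names (29.4%) pointed away from the nearest coding gene on the other strand (divergent) and 122 (19.9%) pointed toward it (convergent). On the same strand, 176 (28.7%) lay after the gene and 125 (20.4%) before it. Within 5 kb, 29 of 81 LINC names were divergent, 35.8% (25.4 to 47.2%). Nearly as many, 25, lay after the gene on its strand, 30.9% (21.1 to 42.1%). A further 17 were convergent and 10 lay before the gene on its strand. LOC names at that distance were divergent in 136 of 216 cases, 63.0% (56.1 to 69.4%). Beyond 100 kb the 4 LINC orientations held 50, 51, 48 and 45 names.

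**Figure D4:**
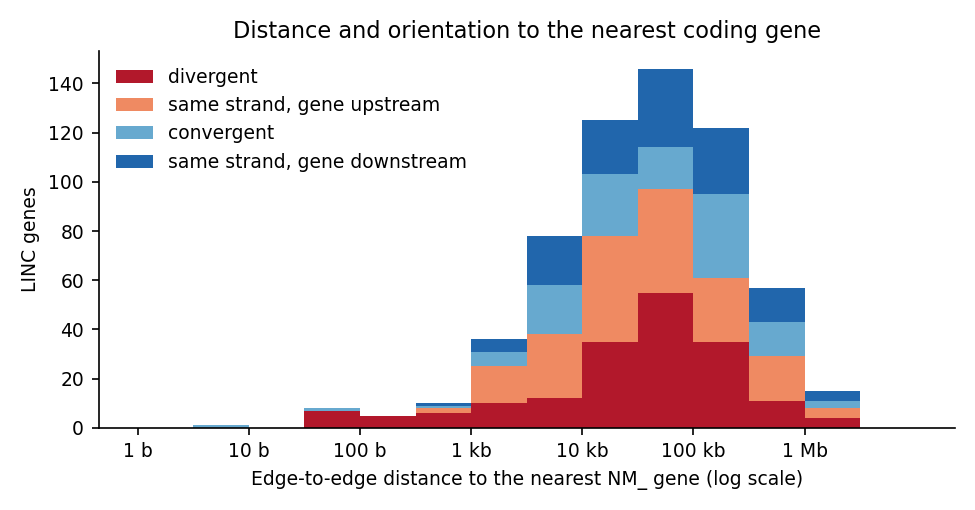
Number of LINC names by edge-to-edge distance to the nearest coding gene (log10 scale, bases) for each orientation. The 10 overlapping names are left out, and most names lie between 5 and 100 kb.

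Head-to-head pairs with start sites at most 1 kb apart were few among LINC genes. There were 18 of 613 (2.94%, 1.75 to 4.60%), against 30.1% of -AS names and 12.7% of LOC names. Here too the classes were chosen by name, and a part of naming in these shares was not tested. The closest pairs were LINC00271 and AHI1 at 36 bases, LINC00894 and CXorf40B at 50 bases, and LINC01057 and SLC44A3 at 61 bases. LINC00441 and RB1 were 86 bases apart. LINC01185 started 181 bases from REL, which encodes an NF-κB subunit. At the limit of 1 kb, the last pairs inside were LINC01184 with SLC12A2 (717 bases) and LINC01124 with SP5 (780 bases), and the first outside were LINC01135 with JUN (1038 bases) and LINC00893 with CXorf40A (1207 bases). The naming committee's later symbols follow this geometry only in part. Of the 18 pairs, 11 now carry a divergent transcript (-DT) symbol, such as AHI1-DT, RB1-DT and REL-DT, and 5 still have a LINC symbol. Over all 613 LINC names, 18 carry a -DT symbol. Those outside the limit had gaps from 1038 bases (LINC01135, JUN-DT) to 55002 bases (LINC00167, PRDM10-DT). LINC00167 overlaps PRDM10 on the other strand.

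The divergent starts also differed from the rest in base composition. A window from 250 bases before to 50 bases after the start was called CpG-rich at a GC content of at least 50% and a CpG ratio of at least 0.6, the ratio being observed over expected CG dinucleotides. One LINC window that lies in an assembly gap was left out. CpG-rich windows made up 17 of 18 at divergent LINC starts (94.4%, 72.7 to 99.9%) and 117 of 594 at the other LINC starts (19.7%, 16.6 to 23.1%). LOC names gave a like pair of shares, 87.6% of divergent and 19.3% of other starts. Over all LINC windows the share was 21.9%, against 46.2% for -AS, 28.0% for LOC and 60.3% for coding genes. LINC00441 had a ratio of 1.26 at 69.7% GC and LINC01137 a ratio of 0.965 at 80.7% GC. LINC00592, the exception, had a ratio of 0.153 at 59.3% GC. In the 14 pairs with a gap of at most 0.5 kb the LINC window overlaps the same window of the coding partner, and both promoters cannot be told apart there. In the 4 wider pairs the windows do not overlap, and the LINC windows were CpG-rich. Their ratios were 0.856 for LINC01126, 0.789 for LINC01351, 0.937 for LINC01184 and 0.927 for LINC01124. In that order, the bases between the starts held 74, 16, 97 and 58 CG dinucleotides in 606, 632, 718 and 781 bases. Whether 1 CpG-rich stretch covers both starts of a pair was not tested.

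**Figure D5:**
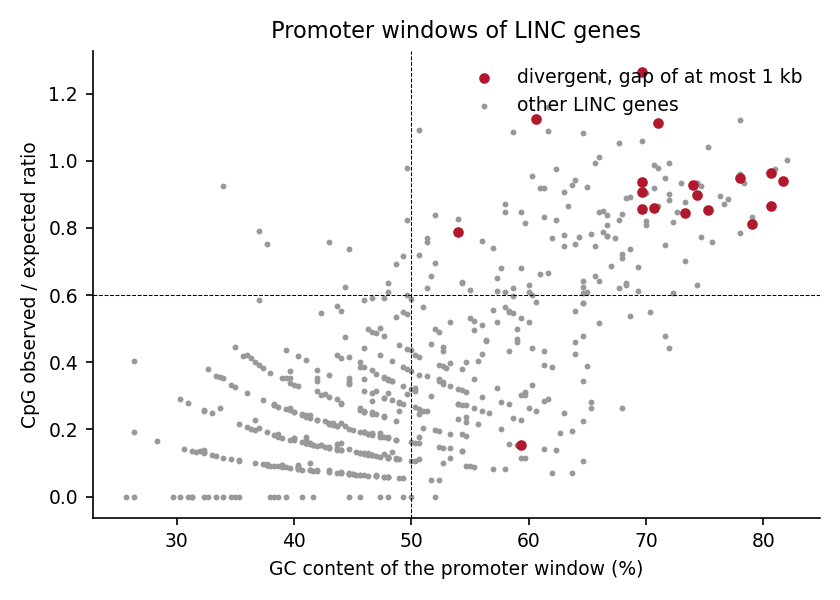
GC content (%) and CpG observed over expected ratio of the promoter window for 18 divergent LINC genes and the 594 others, with dashed lines at 50% and 0.6. All divergent genes but LINC00592, at a ratio of 0.153, sit in the upper right.

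A TATA motif was rare. TATAAA, searched on the gene's strand and starting 40 to 20 bases before the start, was found for 12 of 612 LINC names (1.96%), against 1.23% of -AS, 0.746% of LOC and 1.88% of coding names. A polyadenylation hexamer, AATAAA or ATTAAA on the gene's strand in the last 50 bases, was present in 69.8% of LINC names (66.0 to 73.4%). It was present in 64.5% of -AS, 62.5% of LOC and 75.6% of coding names. The LINC share thus lay between those of the other noncoding classes and of coding genes. Its interval was apart from those of LOC (59.9 to 65.1%) and coding names (74.9 to 76.2%). It overlapped that of -AS names (60.9 to 68.0%), so the order of these 2 classes is within counting error. A match is a string of letters, not a tested site.

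Splice sites were mostly the usual ones, with more GC-AG introns than in coding genes. Of 2053 distinct LINC introns, 97.1% were GT-AG and 2.09% GC-AG (1.52 to 2.81%). Coding introns were 98.7% GT-AG and 0.933% GC-AG (0.892 to 0.975%), so the GC-AG share in LINC genes lay above the coding one by more than counting error. The -AS and LOC classes had 1.88% and 2.04%. A further 0.682% of LINC introns and 0.229% of coding introns had ends other than GT-AG, GC-AG or AT-AC. The -AS and LOC shares were 0.427% and 0.537%. The LINC share rests on 14 introns, among them those in the LINC01128 repeat described above. Also among the 14, LINC00850 lists an intron of 11 bases and LINC00869 one of 9 bases.

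Among genes of the islet, GHRL and FOXA2 had a LINC gene close by. A list of 65 islet hormones, secretion genes and transcription factors was read against the positions. Of these, 8 (12.3%) were the coding gene nearest to a LINC name, against 528 of 19092 coding genes (2.77%), a comparison given without a test. The list was not matched to all coding genes for the space around each gene. LINC00852, a single exon, ended 4 bases from the end of GHRL, which encodes ghrelin. LINC00261 lay 2362 bases after FOXA2 on the same strand. The other pairs given here were far apart. LINC00523 was 54121 bases from DLK1, LINC01019 59960 bases from IRX1, LINC00538 61282 bases from PROX1 and LINC01152 79723 bases from SOX9, a progenitor factor. LINC00581 was 81849 bases from SOX4. All 8 were listed with 0 joined models. Most of them had 1 RefSeq transcript, the class in which 0 of 458 LINC names had a joined model, so this was largely set in advance. Their level in INS-KD or Negative Control cells was not analysed here.

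A reading frame of 100 codons, a common limit for calling an RNA coding, was reached by the longest model of 219 LINC names (35.7%, 31.9 to 39.7%). This was 32.0% in -AS, 31.2% in LOC and 97.4% in coding genes. The median longest frame was 85 codons in LINC genes and 425 in coding genes, counted from ATG to a stop. The longest LINC frames were those of LINC01061 with 618 codons and LINC00273 with 462, and RefSeq still lists both as noncoding.

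Some LINC genes have since been classed as coding. Of 611 names found in current RefSeq, 515 kept their symbol and 96 have another. Protein coding is the current class of 29 names, pseudogene that of 7 and lncRNA that of 575. The 29 had a median longest frame of 111 codons (59 to 222) and 16 reached 100 codons, against a median of 85 and 208 of 582 in the others. In 4 of the 29 the name is now a synonym of another coding gene, and each was a single exon. The other 25 have a symbol of their own. The 4 count in the frame values above, with 190 codons for LINC00341, 149 for LINC00950 and 123 for LINC00889. Whether those frames are coding was not tested, so the frame lengths of the 29 are not those of the 25 alone. LINC00341 lay 7404 bases after SYNE3, LINC00889 13935 bases after FGF13 and LINC01279 2417 bases after CCDC80. Each lay on the strand of that gene, which now lists the name as a synonym. LINC00950 is now listed as a synonym of TMEM8B. Whether these coding genes now include the LINC exons was not checked by position.

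GENCODE 44 lists a coding frame inside the model of 22 LINC names, 3.59% (2.26 to 5.38%), against 0.956% of -AS and 0.896% of LOC names. All 22 began with ATG and met a stop within the model. The frames were short, with a median of 79 codons (25 to 187), and 14 of the 22 had fewer than 100. The annotated frame was the longest of every model that holds it in 9 names, of some models only in 2 names, and of no model in 11 names. The LINC00948 frame printed above encodes myoregulin, an inhibitor of the calcium pump of muscle, in 46 codons. It is the longest frame of the RefSeq transcript of 427 bases, while that of 549 bases has a frame of 68 codons. The LINC00998 frame, now SMIM30, has 59 codons and is the longest of the 1039-base transcript, while the 1127-base transcript has a frame of 97. LINC00961 (SPAAR), a lysosomal peptide, has 75 codons beside a longest frame of 97 in its only transcript, and LINC00672 (LASP1NB) has 25 beside 84. LINC00493 (SMIM26), a mitochondrial protein, has its annotated frame of 95 codons as its longest. Translation in these cells was not measured.

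Within the spans of 3 LINC genes lay 6 microRNA genes, 5 of them on the host's strand. MIR9-2, which yields the brain and islet microRNA miR-9, lay in a 3147-base exon of 2 RefSeq models of LINC00461 and in an intron of its other RefSeq model and of both joined models. Whether a LINC00461 transcript contains the hairpin thus depends on the isoform. LINC00478, now MIR99AHG, held MIR99A, MIRLET7C and MIR125B2 in introns of all 6 of its models. LINC00669 held MIR5583-2 in an intron and MIR5583-1 on the opposite strand. The amount of these microRNAs was not measured by the libraries.

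Single-exon genes were set closer to coding genes than spliced ones. The 46 LINC names with single-exon models alone had a median distance of 8366.5 bases, against 49484 bases for the 567 multi-exon names. They made up 17.3% of the names within 5 kb (9.78 to 27.3%), 7.62% at 5 to 100 kb and 2.06% beyond 100 kb (0.565 to 5.19%). Their windows were CpG-rich in 37.0% (23.2 to 52.5%), against 20.6% (17.4 to 24.2%) of multi-exon names. LINC00341, LINC00889, LINC00950 and LINC01279, whose names are now synonyms of coding genes, all fell in this class.

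In a few places the assembly paired a known intron chain with a known end of another transcript. For LINC00869 and LINC01123, 3 and 2 assembled models kept a RefSeq intron chain with longer ends. The smallest of the LINC00869 models had 3319 bases where its RefSeq transcript has 1015. The added ends are ends of other reference transcripts of the locus, and LINC00869 shares its locus with LINC00623. Both overlap NBPF20, a member of a family of near-identical copies, so the assignment of reads to this locus is uncertain.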

How the data were processed

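The deposited file is 1 merged transcript assembly of all 6 libraries (INS-KD and Negative Control, n = 3 each). Per the labels' protocols, total RNA was made into full-length cDNA with a low-input kit and into libraries by tagmentation. TopHat2, Cufflinks and hg19 are named without versions in the submitters' processing notes, and their settings are not stated in the labels or the file. The values deposited by the authors, of the unit other, are the first and last base of each exon with tags for name and class, and no score. The planned description needed no test, and no model was fitted.

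Models were rebuilt with pysam 0.24.0 and numpy 2.4.6 under Python 3.11.15, intervals were computed with scipy 1.17.1, and figures were drawn with matplotlib 3.10.9. The functions for orientation, gaps, intron runs and frames were checked on simulated data with known answers. An exact class with a RefSeq accession was called a RefSeq transcript, and class j a joined model. Coding names hold an NM_ transcript. Sequence was read from GRCh37, chains and coding frames from GENCODE 44 mapped to it, and current symbols by name from RefSeq (GRCh38.p14), with no coordinates taken across builds. Motifs, windows and frames used 1 model per name. The named genes were the top 5 names of each structural measure, the 10 with most joined models, the closest divergent pairs, introns outside RefSeq, and the islet and known-function lists. The members and lists were chosen with earlier results of these data known. The genes of the miRNA, frame and synonym groups were named after their values were seen. One pair of the islet list is not reported here.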

Additional observations from a re-analysis of the deposited data

How the results depend on the processing

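The number of LINC names ranged from 611 to 615 and that of models from 835 to 864 over the alternatives. The median exon number was 3 in each, the median spliced length 1579 to 1639 bases, and the divergent share 2.28% at 0.5 kb and 3.92% at 2 kb. Other values moved by the construction of the alternative. The share of LINC names with a joined model was 18.3% among names with at least 2 RefSeq transcripts. The median distance was 75840 bases from start to start, and 4.73% of names were divergent at a limit of 5 kb. Overlap was 0.489% when exon bases had to be shared. A frame of at least 50 codons was found in 86.6% and of at least 150 codons in 8.72% of models, against 35.4% at 100. At least 1 intron was identical to GENCODE in 95.7% of transcripts. No paired analysis was possible because the file has no values per library. Depth is unknown, and replicates could not be compared or left out.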

Other observations

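LINC names were unevenly spread over chromosomes. Chromosome 13 held 75 of the 613 names, 6.51 per 10 Mb and 24.0 per 100 coding names, and chromosome 21 held 27, at 5.61 per 10 Mb. Chromosome 11 held 8, at 0.593 per 10 Mb and 0.636 per 100 coding names. The -AS names were also densest on chromosome 13, at 4.86 per 10 Mb, while LOC names had 1.13 per 10 Mb there and were densest on chromosome 20, at 10.6. Names are given by annotators, and naming by chromosome was not tested.

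Some coding genes had several LINC neighbours. GPC5, which encodes a glypican, was the nearest coding gene of 6 LINC names on chromosome 13. POU3F3, a neural POU factor gene, was nearest to 5, and TBL1XR1, a corepressor subunit, to 4.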
